A study of Rattus norvegicus with 8 samples.

Results

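The comparison described here is that of phlorizin alone with control in the 2 dissected zones of the rat kidney, the cortex and the outer medulla. Phlorizin is a plant glucoside that blocks the sodium-glucose cotransporters SGLT2, the main route of glucose uptake in the early proximal tubule, and SGLT1, which takes up glucose further along. The comparison rests on 4 of the 8 arrays of the series, chosen by their labels: cortex with phlorizin, cortex control, outer medulla with phlorizin and outer medulla control. The other 4 arrays hold the same zones of rats given ethylene glycol and alfacalcidol (EG), a model of calcium oxalate stones, with and without phlorizin. All rats were male Sprague-Dawley animals 10 weeks old, with free access to food and water, and kidneys were taken after 2 weeks of treatment. The dose and route of phlorizin, the number of animals behind an array and the hour at which kidneys were taken are not given in the sources used here. Per the labels a kidney was divided into both zones, so arrays of one treatment can share animals and the zones are not independent replicates. There was 1 array per zone and treatment, so no difference below has a replicate check and none carries a p-value.

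Glucose filtered by the kidney is reclaimed almost wholly in the proximal tubule, whose early parts lie in the cortex. The straight end of the proximal tubule and the thick ascending limb fill most of the outer medulla. Blocking reabsorption sends glucose and sodium down the nephron and out with the urine, and the body shifts from glucose to fat as a fuel. The zones also differ in what they can show, since an RNA made only by one part of the nephron is measured in one zone alone.

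The marker genes Slc5a2 and Slc12a1 followed the zone labels. Slc5a2, which encodes SGLT2, read 16.25 with phlorizin against 16.46 in control cortex, and 5.46 with phlorizin against 6.02 in control outer medulla. Slc12a1, the salt cotransporter of the thick ascending limb, read 13.45 with phlorizin against 13.54 in control cortex, and 17.94 with phlorizin against 17.97 in control outer medulla. Genes listed for the straight proximal tubule were not brighter in outer medulla. Their median value there was 12.30 with phlorizin and 11.92 in control, against 13.69 and 13.46 in cortex. One of them, Slc5a1, read 4.22 with phlorizin against 4.58 in control outer medulla, and 7.70 against 7.90 in cortex. Values are log2 expression values, so a difference of 1 is a factor of 2. Background probes averaged 5.58 with phlorizin and 5.68 in control cortex, and 5.63 with phlorizin and 5.60 in control outer medulla, so a gene with a value near 5.6 is not measured above background. Below, a gene is called measured in a zone where the higher of its phlorizin and control values there reached the median of all values, 7.54. Control probe sets whose IDs mark them as negative averaged 7.64 with phlorizin and 7.58 in control cortex. In outer medulla they averaged 7.81 with phlorizin and 7.75 in control. The limit of 7.54 lies under these averages, so a gene called measured with values near them is not shown to be expressed. Poly-A spike-in controls were on average 0.21 higher with phlorizin than in control cortex and 0.13 higher than in control outer medulla, and their part in the results was not tested. In whole tissue pieces fewer cells of a type and less RNA per cell cannot be told apart.

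The phlorizin and control arrays were close to each other in both zones. Of 13170 probe sets that reached 7.54 on at least 1 of the 8 arrays, 153 (1.16%) were at least 1 apart in the cortex, 86 higher (0.653%) and 67 lower (0.509%) with phlorizin. In the outer medulla 103 (0.782%) were at least 1 apart, 76 higher (0.577%) and 27 lower (0.205%). Among EG rats the same size of difference between EG with phlorizin and EG was met by 1782 probe sets (13.5%) in cortex and 1013 (7.69%) in outer medulla. The split of directions in the cortex depended on the scaling. After median centring of the arrays it was 127 higher and 49 lower, and with a loess curve on level taken off 122 higher and 53 lower. At least 0.5 apart in the cortex were 719 higher and 1090 lower (13.7% together), but 1039 higher and 725 lower after centring and 961 higher and 757 lower after loess. The outer medulla had 656 at least 0.5 higher and 654 lower (9.95% together).

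Dim genes made up many of these calls. In the cortex 3.10% of probe sets whose phlorizin and control values averaged under 7.54 were at least 1 apart, against 0.0581% of those averaging over 13. Outer medulla shares were 2.53% under 7.54 and 0.178% over 13. Of 1153 control probe sets whose IDs mark them as negative, 15.0% were at least 1 apart in cortex and 14.1% in outer medulla. The SD of all differences was 0.348 in cortex and 0.314 in outer medulla.

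Few genes differed alike in both zones. Only 6 probe sets (0.0456%) were at least 1 apart in the same direction in both, 4 higher (0.0304%) and 2 lower (0.0152%), which is 3.92% of the cortex calls and 5.83% of the outer medulla calls. The number is the same after centring, quantile normalization and loess, with the same 5 named genes each time. Another 3 (0.0228%) were at least 1 apart in opposite directions. In the cortex alone, with a difference under 0.5 in the outer medulla, there were 117 (0.888%), and in the outer medulla alone 70 (0.532%). The remaining 51 lay between these limits in the other zone. Over all 13170 probe sets the difference in cortex and that in outer medulla had a Pearson r of 0.057 across probe sets, which are not independent replicates. The share with the same direction was 53.8% of the 2301 probe sets at least 0.25 apart in both zones, 59.5% of 296 at 0.5, 74.4% of 39 at 0.75, and 6 of 9 at 1.

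**Figure D1:**
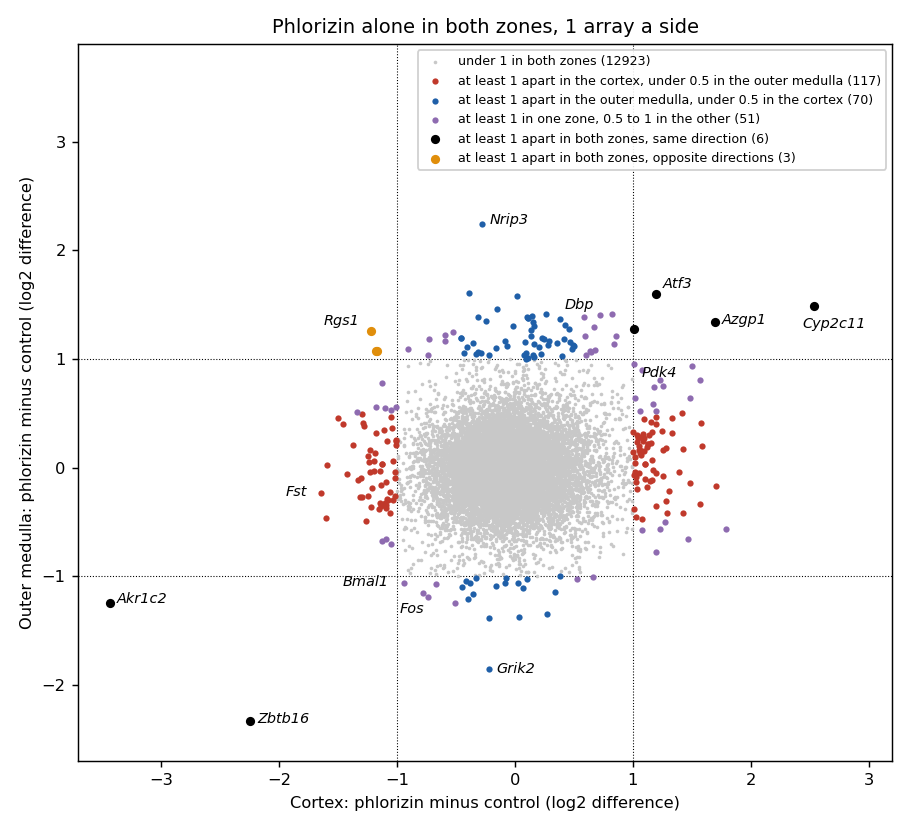
Difference between the phlorizin and the control array (log2) in the cortex (x axis) and the outer medulla (y axis) for the 13170 probe sets, coloured by class, with dotted lines at 1. Most points lie in a round cloud, 117 lie beyond 1 in the cortex only and 70 in the outer medulla only, and 6 are beyond 1 in the same direction in both.

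The gene with the largest drop shared by both zones was Zbtb16, which encodes the zinc-finger repressor PLZF and is a known glucocorticoid-induced gene. Zbtb16 read 6.49 with phlorizin against 8.73 in control cortex, a difference of -2.24. In the outer medulla Zbtb16 read 8.82 with phlorizin against 11.15 in control, a difference of -2.33. Of the 6 alike probe sets it was the only one whose difference exceeded 1.5 in both zones. Among EG rats Zbtb16 was lower with phlorizin too, with differences of -1.47 in cortex and -1.01 in outer medulla. It read 5.99 with phlorizin against 7.46 without in EG cortex, where it was not measured. In EG outer medulla it read 6.54 with phlorizin against 7.56 without. The negative control probe sets averaged 7.90 with phlorizin and 7.80 without there, so these values do not show expression.

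Akr1c2, an aldo-keto reductase of the family that handles steroids, was the other gene lower in both. Its value was 4.46 with phlorizin against 7.89 in control cortex, a difference of -3.43, and 5.80 with phlorizin against 7.05 in control outer medulla, a difference of -1.25. The phlorizin value of the cortex lies below background and that of the outer medulla near it, so background limits the size of both differences. Among EG rats the difference was -1.19 in cortex and 0.38 in outer medulla.

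Atf3, a stress-induced transcription factor, was measured well above background on all 4 arrays. Its values were 10.23 with phlorizin against 9.04 in control cortex, a difference of 1.19, and 11.88 with phlorizin against 10.28 in control outer medulla, a difference of 1.60. Among EG rats Atf3 differed by 0.05 in cortex and by -0.79 in outer medulla.

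Azgp1 encodes zinc-alpha-2-glycoprotein, a secreted protein known for its effect on fat breakdown. It read 9.81 with phlorizin against 8.12 in control cortex, a difference of 1.69, and 8.33 with phlorizin against 6.99 in control outer medulla, a difference of 1.34. With Zbtb16, it was one of the 2 named genes whose difference reached 1 in the same direction in both zones among EG rats as well, by 3.57 in cortex and 2.17 in outer medulla. On the EG arrays without phlorizin Azgp1 read 4.76 in cortex and 4.82 in outer medulla, below background, which limits the size of both differences. With phlorizin it read 8.33 in EG cortex, but 6.99 in EG outer medulla, where it was thus not measured. Zbtb16 was not measured in EG cortex, and its EG outer medulla values lay under the averages of the negative control probe sets.

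Cyp2c11, a cytochrome P450 best known as the male form in rat liver, read 9.50 with phlorizin against 6.96 in control cortex, a difference of 2.54. Its outer medulla value was 5.69 with phlorizin against 4.21 in control, a difference of 1.48 between values at or below background. By the limit of 7.54, Cyp2c11 and Akr1c2 were thus not measured in the outer medulla, which leaves Zbtb16, Atf3, Azgp1 and an unnamed probe set as the 4 alike ones measured in both zones. The Cyp2c genes of the rat are close in sequence, and whether the probes tell them apart was not tested. The cortex also had Cyp2c24 higher, at 10.71 with phlorizin against 9.59 in control, while Cyp2c23, a main epoxygenase of rat kidney, read 18.90 with phlorizin against 18.95 in control cortex. The unnamed probe set was 1.01 higher in cortex and 1.28 higher in outer medulla.

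Just outside the limit stood Pdk4 and Bmal1. Pdk4, the kinase that shuts pyruvate dehydrogenase when fat is burnt, read 9.24 with phlorizin against 8.23 in control cortex, a difference of 1.01, and 10.66 with phlorizin against 9.70 in control outer medulla, a difference of 0.96. Among EG rats Pdk4 differed by 0.08 in cortex and by 1.55 in outer medulla. Bmal1, a core activator of the circadian clock, read 7.52 with phlorizin against 8.46 in control cortex, and 7.66 with phlorizin against 8.71 in control outer medulla, differences of -0.94 and -1.06. Fos, an immediate early gene, read 9.19 with phlorizin against 9.96 in control cortex, and 11.62 with phlorizin against 12.78 in control outer medulla.

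**Figure D2:**
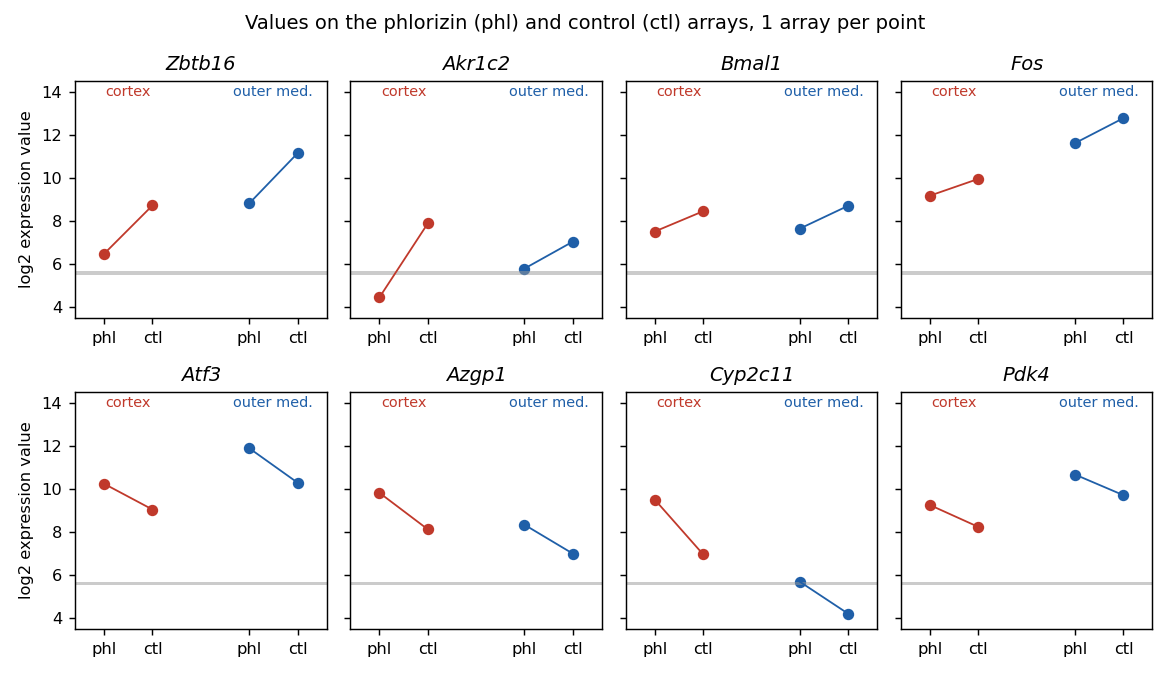
Log2 expression value (y axis) of 8 genes that differed alike in both zones on the phlorizin (phl) and control (ctl) arrays of the cortex and of the outer medulla, 1 array per point, with the mean of the background probes as a grey band. Zbtb16, Akr1c2, Bmal1 and Fos slope up towards control and Atf3, Azgp1, Cyp2c11 and Pdk4 slope down, and Akr1c2 and Cyp2c11 reach the band.

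Lowering the limit to 0.75 in both zones, a size chosen after the values were seen, left 22 named genes for which the directions were the same. Among those higher with phlorizin and measured in both zones were Gadd45b, a stress-induced gene of the DNA damage response, Slc7a12, an amino acid transporter, and Abcg1, a cholesterol exporter. Gadd45b read 9.61 with phlorizin against 8.77 in control cortex, and 11.33 with phlorizin against 10.19 in control outer medulla. Slc7a12 read 13.03 with phlorizin against 11.80 in control cortex, and 11.64 with phlorizin against 10.84 in control outer medulla. Abcg1 was brighter in the outer medulla, at 12.03 with phlorizin against 11.12 in control, than in the cortex, at 7.71 with phlorizin against 6.90 in control. In each zone these 3 genes differed by 0.80 to 1.23. Among those lower was Tp53inp1, a p53 target linked to autophagy, with 11.33 with phlorizin against 12.15 in control cortex, and 11.87 with phlorizin against 12.72 in control outer medulla. Cyp2d2, a cytochrome P450, read 12.35 with phlorizin against 13.22 in control cortex but was not measured in the outer medulla.

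The circadian clock runs as a loop. BMAL1 with CLOCK or NPAS2 switches on the Per, Cry, Nr1d, Dbp, Tef and Ciart genes through E-box elements, the PER, CRY and CIART proteins hold that activation back, and NR1D proteins repress Bmal1 through ROR elements. Of the clock list, 16 genes were tested. In the outer medulla 8 of the 16 were at least 0.5 higher with phlorizin and 3 at least 0.5 lower, where 4.98% and 4.97% of all probe sets were. In the cortex 4 were at least 0.5 higher and 1 lower, where 5.46% and 8.28% of all were, and after centring 5 were higher and 1 lower. The median difference of the list was 0.36 in outer medulla and 0.09 in cortex, against -0.01 and -0.06 over all probe sets. With a filter 1 higher on level the outer medulla median was 0.21.

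The activators Bmal1 and Npas2 were lower, and most of their targets higher, in outer medulla. Npas2 read 8.12 with phlorizin against 9.33 in control outer medulla, a difference of -1.21, and 8.99 with phlorizin against 9.39 in control cortex, a difference of -0.40. Clock itself differed by -0.25 in outer medulla and by -0.19 in cortex. Dbp, a clock output that drives detoxification genes, read 15.68 with phlorizin against 14.27 in control outer medulla, a difference of 1.40. In the cortex Dbp read 15.58 with phlorizin against 14.86 in control, a difference of 0.72.

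Among the clock's repressors, Per3 read 10.76 with phlorizin against 9.50 in control outer medulla, and 9.30 with phlorizin against 9.16 in control cortex. Ciart read 7.98 with phlorizin against 6.71 in control outer medulla, and 8.25 with phlorizin against 7.79 in control cortex. Per2 read 12.20 with phlorizin against 11.42 in control outer medulla, and 11.74 with phlorizin against 11.76 in control cortex. All of these differed more in the outer medulla than in the cortex, whereas Cry2 differed by 0.51 in outer medulla and 0.60 in cortex, and Per1 by 0.21 and 0.51. Tef, a relative of Dbp, read 9.31 with phlorizin against 8.27 in control outer medulla, a difference of 1.04, and differed by 0.22 in the cortex. Nr1d1, the repressor of Bmal1, differed by 0.12 in outer medulla and 0.13 in cortex. Nfil3, a repressor at the elements that DBP binds, went opposite ways, with -0.73 in outer medulla and 0.51 in cortex. Among EG rats the list median was 0.59 in outer medulla and 0.67 in cortex, against 0.02 and -0.04 over all probe sets. Such medians were not particular to the clock list among EG rats. Sodium transport and aldosterone response genes had 0.66 in outer medulla and 0.84 in cortex, and cell cycle genes -0.87 and -1.06.

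**Figure D3:**
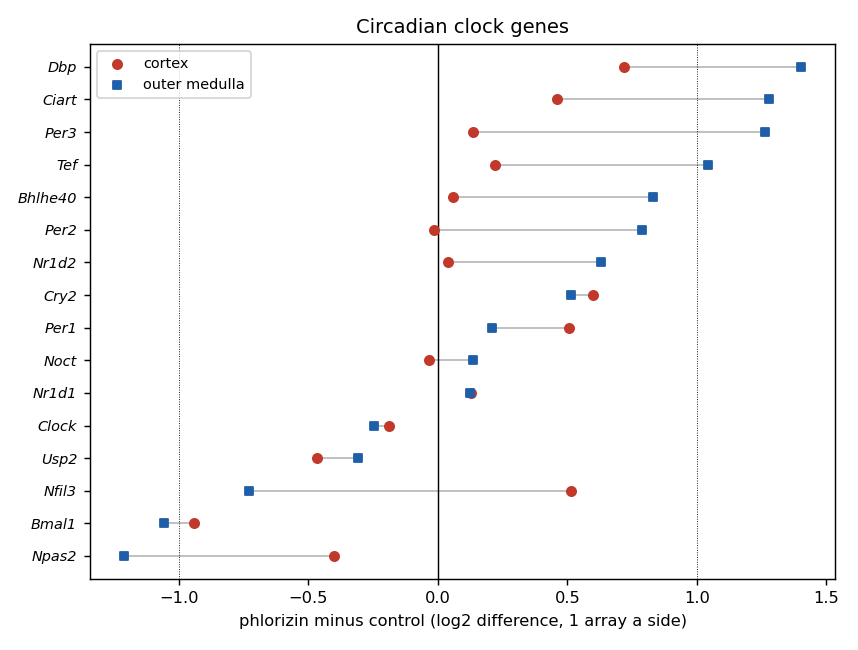
Difference between the phlorizin and the control array (log2, x axis) for the 16 clock genes, ordered by the outer medulla, with cortex as circles and outer medulla as squares and dotted lines at 1. Dbp, Ciart, Per3 and Tef exceed 1 in the outer medulla only, Npas2 and Bmal1 lie below -1 there, and Nr1d1 sits near 0 in both zones.

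The 250 bases before the annotated start are printed for 3 clock genes that differed in the outer medulla and hold a clock motif, from RefSeq on the rat build GRCr8, on the strand of the gene. Capitals mark an E-box, CACGTG, in Ciart and Tef, and the core of a ROR element, TAGGTCA, in Bmal1. The Bmal1 window is chr1:176766078-176766327 on the plus strand, with its ROR core starting 16 bases before the start. The Ciart window is chr2:186112247-186112496 on the minus strand, with E-boxes starting 93, 35 and 21 bases before the start. The Tef window is chr7:115206577-115206826 on the plus strand, with its E-box starting 198 bases before the start.
Bmal1: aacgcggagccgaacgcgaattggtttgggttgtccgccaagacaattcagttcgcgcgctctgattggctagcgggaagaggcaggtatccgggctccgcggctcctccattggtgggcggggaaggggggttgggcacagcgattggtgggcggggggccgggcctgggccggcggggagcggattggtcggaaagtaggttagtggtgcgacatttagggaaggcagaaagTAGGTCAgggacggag
Ciart: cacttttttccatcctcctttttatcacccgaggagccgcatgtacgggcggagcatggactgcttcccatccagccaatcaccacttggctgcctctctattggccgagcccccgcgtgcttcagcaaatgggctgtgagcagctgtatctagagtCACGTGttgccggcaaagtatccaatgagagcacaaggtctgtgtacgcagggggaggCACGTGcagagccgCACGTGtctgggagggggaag
Tef: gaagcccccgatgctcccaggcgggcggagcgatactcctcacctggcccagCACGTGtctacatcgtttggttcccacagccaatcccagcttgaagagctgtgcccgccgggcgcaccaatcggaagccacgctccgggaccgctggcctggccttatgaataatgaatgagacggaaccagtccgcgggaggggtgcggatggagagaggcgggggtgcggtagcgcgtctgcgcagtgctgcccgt
Motifs were searched on both strands as CACGTG for the E-box, TTATGTAA or TTACGTAA for the D-box, and TAGGTCA or TGGGTCA for the ROR core. The 16 tested clock genes have 18 such windows, and 6 of the genes hold at least 1 motif: 4 an E-box, 1 a D-box and 1 a ROR core. Nr1d1, which differed little in either zone, and Bhlhe40 also hold an E-box, and Per2 holds the D-box. Of all 33469 windows in the table, 5.59% hold an E-box, 0.932% a D-box and 5.62% a ROR core. Among the 8146 windows of tested genes the shares were 8.42%, 0.540% and 4.82%. A match of letters is a description of the window and not a binding site. Dbp, Per3 and Npas2, which also differed by over 1 in the outer medulla, have a window without any of these letters.

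Immediate early genes, which cells switch on within minutes of a stimulus, were mixed in direction. Of 20 tested, outer medulla had 9 at least 0.5 higher and 2 lower, cortex had 5 higher and 4 lower, with list medians of 0.47 and 0.07. Over all probe sets the same sizes were reached by 4.98% higher and 4.97% lower in outer medulla, and by 5.46% and 8.28% in cortex. Besides Atf3, Klf6 was higher in both zones, with 13.79 with phlorizin against 12.58 in control outer medulla, and 11.27 with phlorizin against 10.67 in control cortex. Nr4a2, an orphan nuclear receptor, differed in the outer medulla alone, with 10.42 with phlorizin against 9.27 in control, while in the cortex it was below 7.54 on both arrays. Ier3 and Myc were 0.87 and 0.60 higher in cortex and 0.68 and 0.64 higher in outer medulla. Fos and Klf2 were lower in both zones, Klf2 with differences of -0.54 in cortex and -0.85 in outer medulla. Glucocorticoid response genes were mixed too. Of 19 tested, cortex had 4 at least 0.5 higher and 3 lower, with a median of -0.28, and outer medulla had 2 higher and 4 lower, with a median of 0.05. Besides Zbtb16 and Pdk4, Per1, Dusp1 and Nfkbia were 0.51 to 0.54 higher in the cortex. Lcn2 had differences of -0.60 in cortex and -0.91 in outer medulla, and Cdkn1a of -0.33 and -1.02. Ddit4, an mTOR inhibitor induced by stress, went opposite ways, with -0.74 in cortex and 1.04 in outer medulla.

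Most calls belonged to one zone. Of the 64 named genes called in the cortex only, 51 were measured there: 33 were measured in both zones, 16 higher and 17 lower with phlorizin, and 18 were not measured in the outer medulla. Of the 50 called in the outer medulla only, 38 were measured there: 21 were measured in both zones, 18 higher and 3 lower, and 17 were not measured in the cortex. For genes not measured in the other zone a small difference there says nothing about a response.

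In the cortex alone, Rbp4, the plasma carrier of retinol, read 11.20 with phlorizin against 9.78 in control, a difference of 1.43. Rbp4 read 7.96 with phlorizin against 8.38 in control outer medulla. Reep6, a protein of membrane traffic, read 13.51 with phlorizin against 12.31 in control cortex, and its difference in the outer medulla was 0.46. Neither gene was thus higher by 0.5 in the outer medulla, though both were measured there. Scd2, a fatty acid desaturase, read 11.79 with phlorizin against 10.66 in control cortex, and Cidea, a lipid droplet protein, 9.45 with phlorizin against 8.15 in control cortex. Cidea was far brighter in the outer medulla, at 13.99 with phlorizin against 14.21 in control. The chemokine Ccl20 read 10.06 with phlorizin against 8.90 in control cortex. Vstm2b, Septin9 and Scgb3a2 completed the 8 largest, with differences of 1.57, 1.16 and 1.16.

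Lower in the cortex alone were Bcl6, a transcriptional repressor, with 6.76 with phlorizin against 8.26 in control, and Fst, the activin antagonist follistatin, with 5.98 with phlorizin against 7.62 in control. Fst was far brighter in the outer medulla, at 13.50 with phlorizin against 13.73 in control. Olfml1, an olfactomedin-like protein, read 11.69 with phlorizin against 13.07 in control cortex, and Gadd45g, a relative of Gadd45b, 8.23 with phlorizin against 9.54 in control cortex. Klhl28, Gpr65 and Zfp507 were also lower, with differences of -1.46, -1.33 and -1.25. Hbb, a beta globin gene of red cells, read 10.75 with phlorizin against 12.04 in control cortex, and 15.18 with phlorizin against 14.69 in control outer medulla. The median difference of 8 tested red cell transcripts was -0.44 in cortex and 0.06 in outer medulla, with 4 of 8 at least 0.5 lower in the cortex, where 8.28% of all probe sets were, and the part of blood left in the tissue was not tested.

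Cortex genes without a measured outer medulla value included Akr1b7, an aldo-keto reductase known in mouse renin cells, at 8.57 with phlorizin against 6.99 in control cortex. Hsd17b3, which makes testosterone, read 7.69 with phlorizin against 6.10 in control cortex, and Klk1c9, a kallikrein, 8.75 with phlorizin against 7.36 in control cortex. Stk32a, a kinase, was lower, at 8.99 with phlorizin against 10.58 in control cortex. Cyp24a1, which degrades active vitamin D, read 13.52 with phlorizin against 12.05 in control cortex, and its outer medulla values, 4.25 with phlorizin against 4.91 in control, lay below background.

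Among genes higher in the outer medulla alone, Gdf15, a stress-induced cytokine, read 9.0 with phlorizin against 7.61 in control, and Hbegf, a growth factor that binds the EGF receptor, 11.65 with phlorizin against 10.26 in control outer medulla. In the cortex Gdf15 read 9.03 with phlorizin against 8.89 in control, and Hbegf 10.19 with phlorizin against 10.09 in control, so both were near control there. The other higher genes encode proteins of varied roles. Adamts1, a matrix protease, read 10.78 with phlorizin against 9.37 in control outer medulla, and Tgif1, a repressor of TGF-beta signalling, 11.33 with phlorizin against 9.86 in control outer medulla. The B cell chemokine Cxcl13 read 10.79 with phlorizin against 9.21 in control outer medulla, and 9.25 with phlorizin against 9.23 in control cortex. Afm, a vitamin E carrier, differed by 1.21 in outer medulla and 0.14 in cortex.

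The largest drop among genes called in the outer medulla alone was that of Grik2, a kainate-type glutamate receptor subunit, with 11.07 with phlorizin against 12.92 in control. In the cortex Grik2 read 7.85 with phlorizin against 8.06 in control. Of the genes not measured in the cortex, Nrip3 read 8.43 with phlorizin against 6.19 in control outer medulla, and Slco4a1, an organic anion transporter, 11.75 with phlorizin against 10.44 in control outer medulla. Slc14a2, the urea transporter of the collecting duct and thin limb, read 7.91 with phlorizin against 6.56 in control outer medulla. Cdkn1a, the cell cycle inhibitor p21, was lower, at 6.62 with phlorizin against 7.63 in control outer medulla.

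**Figure D4:**
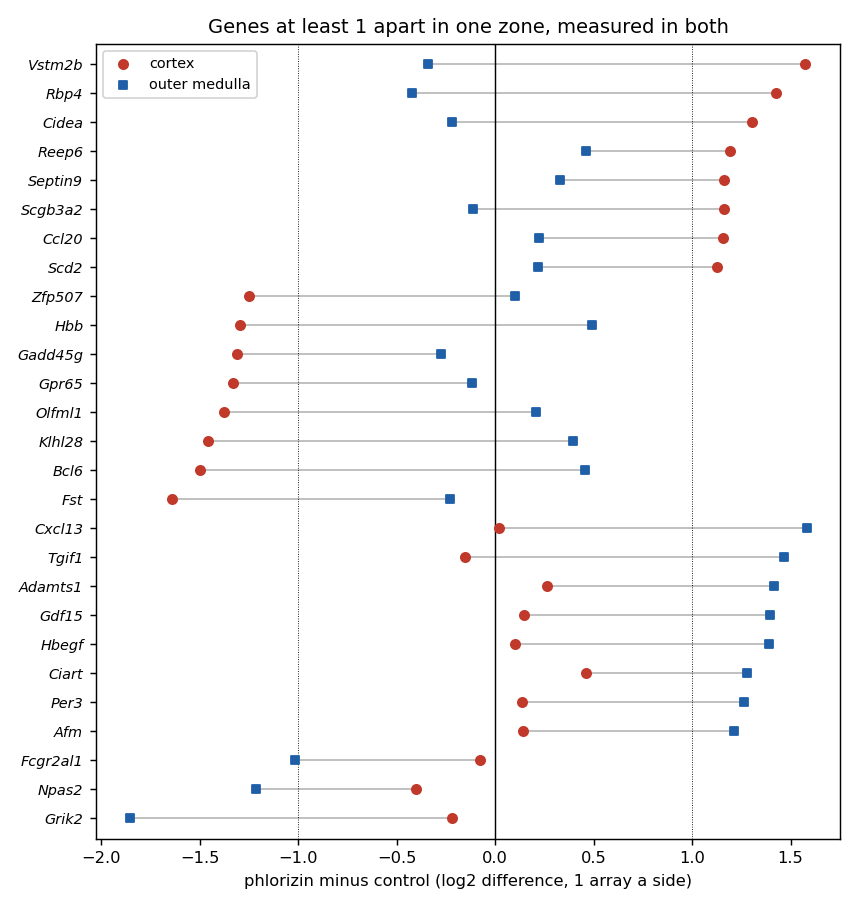
Difference between the phlorizin and the control array (log2, x axis) for 27 genes at least 1 apart in one zone, under 0.5 in the other and measured in both, with cortex as circles and outer medulla as squares. The first 16 genes lie beyond 1 in cortex and the last 11 in outer medulla, where 8 are higher and 3 lower.

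A single measured gene, Rgs1, a brake on G protein signalling in immune cells, was at least 1 apart in opposite directions. It read 7.78 with phlorizin against 9.0 in control cortex, and 10.54 with phlorizin against 9.28 in control outer medulla.

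Of 16 tested sugar and sodium-glucose transporters, 1 was at least 0.5 higher and 1 lower in cortex, where 5.46% and 8.28% of all probe sets were. In outer medulla 3 were higher and 2 lower, where 4.98% and 4.97% of all were. Slc5a2, whose values are given above, had differences of -0.22 in cortex and -0.56 in outer medulla, where it was not measured. Slc5a1, which encodes SGLT1, read 7.70 with phlorizin against 7.90 in control cortex, and was below background in the outer medulla. Slc2a2, the glucose exit transporter GLUT2, read 14.22 with phlorizin against 14.34 in control cortex, and 5.67 with phlorizin against 4.83 in control outer medulla, where both values lie near or below background. Slc2a1, the exit transporter GLUT1, read 13.87 with phlorizin against 14.24 in control outer medulla. Where measured, Slc5a2, Slc5a1, Slc2a2 and Slc2a1 were thus under 0.5 apart. Slc2a5, a fructose transporter, was 0.70 higher in the cortex, at 12.14 with phlorizin against 11.43 in control. Slc2a3, the transporter GLUT3, was 1.20 higher in the outer medulla, at 8.50 with phlorizin against 7.30 in control, and was not measured in the cortex.

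Of 12 tested genes of gluconeogenesis and ammonia formation, cortex had 0 at least 0.5 higher and 2 lower, and outer medulla had 1 higher and 1 lower. Over all probe sets 13.7% were that far apart in cortex and 9.95% in outer medulla. Pck1, the entry enzyme of gluconeogenesis, read 17.48 with phlorizin against 17.44 in control cortex. Of 31 genes of fatty acid oxidation and ketone formation, cortex had 3 at least 0.5 higher and 2 lower, outer medulla had 2 higher and 3 lower. In cortex that is close to the share of all probe sets. The one beyond 1 was Angptl4, an inhibitor of lipoprotein lipase, with 8.49 with phlorizin against 7.35 in control outer medulla.

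Genes of the NRF2 antioxidant programme were more often higher than lower in the cortex. Of 29 tested, 6 were at least 0.5 higher and 0 lower there, where 5.46% and 8.28% of all probe sets were. Centring gave 9 higher, but it also raised the number of all probe sets that much higher from 719 to 1039. The list median was 0.32, against -0.06 over all probe sets. The outer medulla had 1 at least 0.5 higher and 1 lower, with a median of 0.00. Nfe2l2, which encodes NRF2 itself, read 13.27 with phlorizin against 12.45 in control cortex, and 12.63 with phlorizin against 12.27 in control outer medulla. The glutathione transferase Gstp1 read 12.56 with phlorizin against 11.72 in control cortex, and Gstm1 14.33 with phlorizin against 13.62 in control cortex. Nqo1, a quinone reductase often used as an NRF2 readout, was dim in the cortex, at 7.04 with phlorizin against 6.48 in control. None of the 29 was 1 apart.

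Of 21 tested injury markers, Gdf15 and Hbegf among them, 7 were at least 0.5 higher and 3 lower in outer medulla, where 4.98% and 4.97% of all probe sets were. In cortex 2 were higher and 3 lower, where 5.46% and 8.28% of all were. Igfbp1, a binding protein of insulin-like growth factors, read 14.85 with phlorizin against 13.69 in control outer medulla, and 13.96 with phlorizin against 13.88 in control cortex. Havcr1, which encodes the injury marker KIM-1, read 7.92 with phlorizin against 7.82 in control cortex, and was below 7.54 in the outer medulla. Lcn2, the injury marker NGAL, read 8.14 with phlorizin against 9.05 in control outer medulla, and was below 7.54 in the cortex. Of 18 tested genes of the convoluted proximal tubule, 1 was at least 0.5 higher and 0 lower in cortex, near the 5.46% of all probe sets. In outer medulla 2 were higher and 4 lower, where 4.98% and 4.97% of all were. The median value of the list there was only 7.56 with phlorizin and 7.75 in control. Slc2a2, among the higher, and Slc5a2, among the lower, were not measured there. Of 11 genes of the thick ascending limb 0 were 0.5 apart in outer medulla, where 9.95% of all were, and 1 was lower in cortex. Of 12 genes of the straight proximal tubule cortex had 3 at least 0.5 higher, Slc7a12, Slc7a13 and Aadat, and 0 lower, where 5.46% of all were higher. The median of that list was 0.19 in cortex and -0.11 in outer medulla, with 1 higher and 0 lower in outer medulla. Slc7a13, an amino acid transporter of that segment, read 16.37 with phlorizin against 15.40 in control cortex. Of 19 intercalated cell genes 0 were at least 0.5 higher and 3 lower in cortex, where 5.46% and 8.28% of all were. In outer medulla 2 were higher and 1 lower, where 4.98% and 4.97% of all were. The median of that list was -0.25 in cortex and 0.17 in outer medulla. Its lowest member in each zone was the transcription factor Foxi1, with differences of -0.87 in cortex and -0.74 in outer medulla. Of 13 principal cell genes 1 was at least 0.5 higher and 4 lower in cortex, where 5.46% and 8.28% of all were, with a median of -0.10. In outer medulla 3 were higher and 0 lower, where 4.98% and 4.97% of all were, with a median of 0.30. The one higher in cortex was Aqp4, a water channel, which read 8.69 with phlorizin against 7.63 in control cortex, and 15.29 with phlorizin against 14.77 in control outer medulla. Those lower in cortex were Gata3, Avpr2, Scnn1g and Elf5, with differences of -0.91, -0.81, -0.62 and -0.51.

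**Figure D5:**
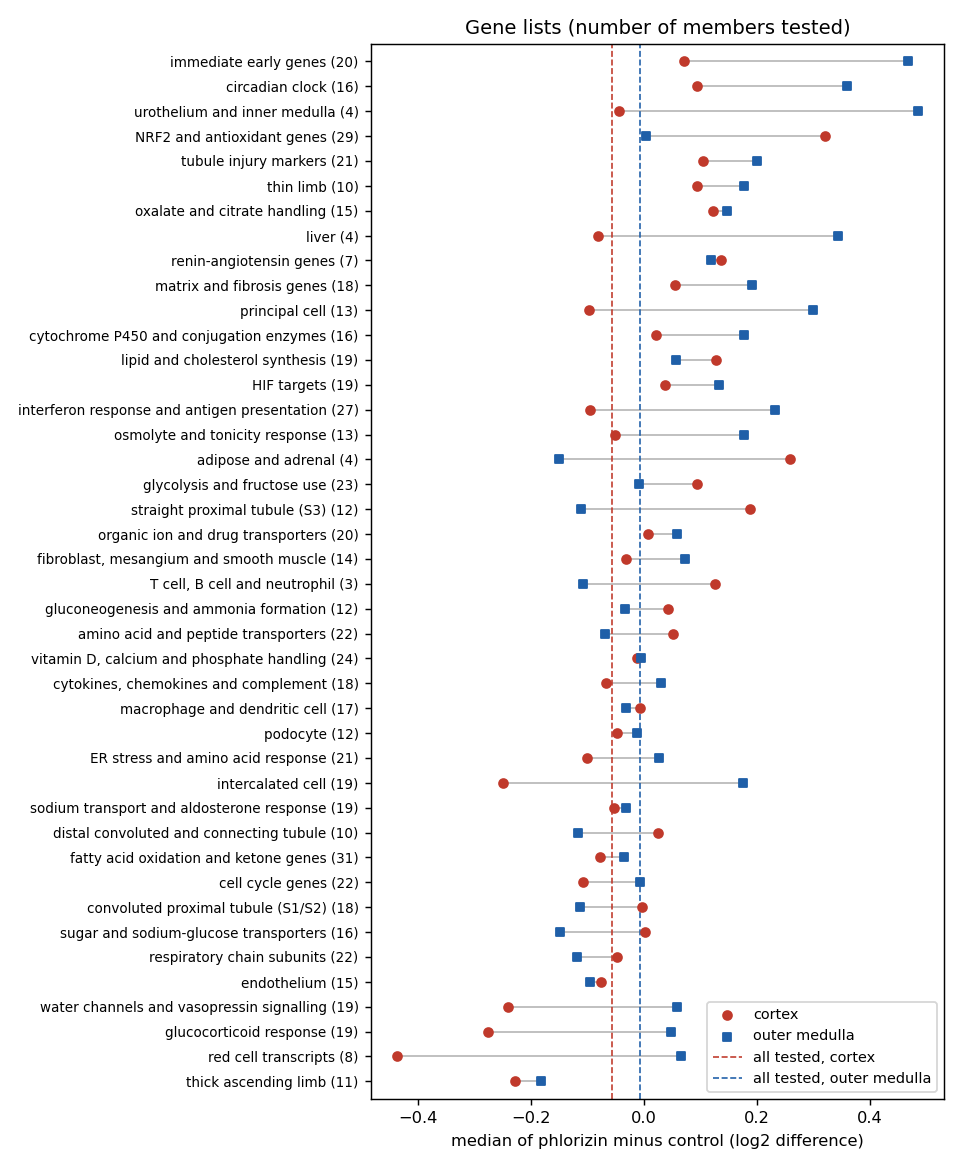
Median difference between the phlorizin and the control array (log2, x axis) of each of the 42 gene lists, with the number of tested members in brackets, cortex as circles, outer medulla as squares and the medians of all tested probe sets as dashed lines. Immediate early genes and clock genes lie furthest right among the larger lists in the outer medulla, at 0.47 and 0.36, and NRF2 genes in the cortex, at 0.32.

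The differences can be set beside those between EG with phlorizin and EG, which use other arrays. Of the 117 probe sets called in the cortex only, 59 (50.4%) had the same direction among EG rats in the cortex, where 52% of all tested probe sets did. Of the 70 called in the outer medulla only, 46 (65.7%) had the same direction among EG rats in the outer medulla, where 52.4% of all did. The 6 alike ones had the same direction among EG rats for 6 of 6 in cortex and 4 of 6 in outer medulla. Of the 29 alike by at least 0.75, named or not, 20 had it in cortex and 19 in outer medulla. Across all probe sets the 2 differences had a Pearson r of 0.081 in cortex and 0.062 in outer medulla. Between the zones phlorizin differences had an r of 0.057 without EG, as given above, and of 0.349 among EG rats. Rbp4, Ccl20, Reep6, Klk1c9 and Slc7a12 were higher with phlorizin in the cortex of both kinds of rat, with differences among EG rats of 2.55, 2.00, 1.04, 1.65 and 4.08. Klk1c9 read only 6.20 with phlorizin against 4.55 without in EG cortex, so it was not measured there. Vstm2b and Scd2 had cortex differences of 1.57 and 1.13 without EG, but of -2.56 and -2.13 among EG rats. Adamts1, called in the outer medulla only, differed there by 1.42 without EG and by -0.24 among EG rats. In the cortex, where it was not called, Adamts1 differed by 0.26 without EG and by -2.38 among EG rats.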

How the data were processed

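RNA of rat renal cortex and outer medulla was measured on Clariom S arrays, 1 array per zone and treatment. Per the submitters' processing notes, the authors used RMA, whose version the notes leave out. The deposited values were read as log2 because they run from 2.28 to 19.7. No raw intensities were used. The table holds 24834 probe sets, and the 1646 control ones were left out. A probe set was used if its highest of 8 values was at least 7.54, the median over the whole table. This kept 13170 probe sets, 9322 with a gene symbol. Symbols come from the platform annotation, updated through Entrez IDs to RefSeq. Where a symbol had several probe sets, the one with the highest mean was taken.

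The phlorizin value minus the control value was taken in each zone without further normalization. With 1 array a side no test was run, and probe sets are called by size, at least 1 on the log2 scale. Genes were named by rule: up to 12 alike in each direction, up to 8 in each zone alone and direction if measured in both zones and 4 if not, up to 4 of each list, and 6 glucose transport and injury genes. Genes that were not all covered by it (Akr1c2, the unnamed probe set, some of those alike by 0.75, Cyp2c23, Cyp2c24, Nr4a2, Angptl4, Cyp24a1, Slc7a13 and other list members) were chosen after their values were seen. The members and the 42 gene lists were chosen with earlier results of these data known. The number of arrays limits the precision of each value. The classification was tested on simulated data. Scripts ran in Python 3.11.15, using numpy 2.4.6, pandas 2.3.3 and, for figures, matplotlib 3.10.9. Alternatives covered the normalization, the filter, the size and the limit in the other zone.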

Additional observations from a re-analysis of the deposited data

Results flagged for a closer look

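For 3 named genes the phlorizin array lay at least 1 below control in the cortex and at least 1 above it in the outer medulla, with 1 array a side, and the difference between the zones was not tested. For Rgs1 the outer medulla difference (1.26) minus the cortex difference (-1.22) was 2.48. For Tcp11 it was 2.25, with 6.70 with phlorizin against 5.63 in control outer medulla, and 5.75 with phlorizin against 6.93 in control cortex. For Zmynd10 it was 2.24, with 7.71 with phlorizin against 6.63 in control outer medulla, and 5.22 with phlorizin against 6.39 in control cortex. Tcp11 and Zmynd10 were below 7.54 on both cortex arrays, and Tcp11 on both outer medulla arrays as well.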

How the results depend on the processing

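Of 52 recomputed counts, 34 stayed within 1.5 times the value reported. Without a filter on level, 385 probe sets were at least 1 apart in the cortex, 244 in the outer medulla, 289 in the cortex only and 171 in the outer medulla only. With a factor of 1.5 in place of 2, the counts were 1215, 831, 989 and 630, with 105 alike and 50 opposite. With a log2 difference of 1.5 in place of 1 they were 15, 6, 8 and 4, with 1 alike (Zbtb16) and 0 opposite. With the other zone held under 0.25, 65 were called in the cortex only and 37 in the outer medulla only. Centring, quantile normalization and loess moved the named genes' differences by at most 0.085, 0.162 and 0.098, and reversed none of those that were at least 1. Changes of sign among smaller differences were not counted, and differences near 0 can change sign with moves of this size. Of 420 recomputed list medians, 20 moved by 0.1 or more, each with a changed filter on level: the clock median of the outer medulla was 0.51 without a filter and 0.21 with a filter 1 higher. Using the mean of all probe sets of a symbol was also tried for named genes. No paired analysis was possible because there is 1 array per zone and treatment, and no array could be left out.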
